A study of Rattus norvegicus with 4 samples.

Results

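The transcripts of 10 genes of the ATF4 stress response were followed in rat liver: *Atf4* itself, the transcription factors *Atf3* and *Ddit3*, the regulators *Trib3* and *Sesn2*, the amino acid enzymes *Asns*, *Phgdh* and *Cth*, and the secreted hormones *Fgf21* and *Gdf15*. They were taken by gene symbol, and all 10 were found among the 16999 named genes of the tables. RNA sequencing had been done on 4 liver libraries from wild type rats. Each group is a single library (n = 1), and replicate error is therefore unknown throughout. For the sevoflurane control (sevoflurane 0 h), 4.5% sevoflurane was given only until consciousness was lost, followed by decapitation, and for sevoflurane 6 h it was kept up for 6 h. The same was done with 6% desflurane (desflurane 0 h and desflurane 6 h). Both agents are volatile ethers used for inhaled anesthesia, and the controls had also inhaled them, but briefly. How many rats each library stands for is not stated in the labels. The labels state neither strain nor age. Per the design notes, control and anesthetized rats were harvested 6 h apart, so the length of anesthesia and the time of day cannot be told apart.

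Cells slow protein synthesis under several kinds of stress by phosphorylating the initiation factor eIF2, which the kinases PERK, GCN2, PKR and HRI do. Translation of *Atf4* mRNA then increases, so that ATF4 protein can change without its mRNA. ATF4 binds C/EBP-ATF response elements (CARE) and raises genes of amino acid synthesis and uptake, together with *Ddit3* (CHOP), *Atf3*, *Trib3* and *Sesn2*. In liver it also acts on *Fgf21*, a hormone that PPAR-alpha raises in fasting, and GDF15 is a hormone of cell stress that acts on the brainstem through the receptor GFRAL.

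Promoter sequences are shown for *Fgf21* and *Trib3*, because they held the only matches to the CARE among the promoters found for these genes. RefSeq sequences (GRCr8 assembly, whereas the expression tables use rn6) were present for 9 of the 10 genes, *Atf3* having no entry, and *Gdf15* had 2 start sites, which gave 10 windows from 250 bases before to 50 bases after a start. The CARE was searched as TGATGNAA on both strands. It was found in 3.98% of all 33469 rat promoter windows. In *Fgf21* it lay 143 to 136 bases before the start and in *Trib3* 21 to 14 bases before it, in both on the strand opposite to the gene. The 250 bases before each start are given 5′ to 3′ on the gene's strand, with the match in capitals, at chr1:105221377-105221626 (minus strand) for *Fgf21* and chr3:161275534-161275783 (minus strand) for *Trib3*.
Fgf21: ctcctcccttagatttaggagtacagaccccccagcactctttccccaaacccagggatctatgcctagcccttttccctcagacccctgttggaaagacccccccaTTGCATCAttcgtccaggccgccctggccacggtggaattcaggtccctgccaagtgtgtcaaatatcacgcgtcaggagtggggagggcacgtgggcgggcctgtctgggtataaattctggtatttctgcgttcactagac
Trib3: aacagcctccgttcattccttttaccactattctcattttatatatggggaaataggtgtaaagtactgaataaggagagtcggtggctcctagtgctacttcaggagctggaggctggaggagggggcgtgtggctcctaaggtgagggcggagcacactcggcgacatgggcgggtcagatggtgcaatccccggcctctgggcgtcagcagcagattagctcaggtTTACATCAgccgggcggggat
The other 8 windows held no CARE in these letters. None of the 10 windows held the cyclic AMP response element TGACGTCA (1.83% of all windows), the endoplasmic reticulum stress element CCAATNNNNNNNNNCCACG (0.0657%) or a PPAR element of the letters AGGTCANAGGTCA (0.0538%). A match describes letters in a window and is not a measured binding site.

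Levels are given as TPM, StringTie's length-scaled abundance, and changes as differences in log2(TPM + 1), which understate the change of low genes. A call, higher or lower, required a TPM above 2 in the larger library and more than a 2-fold ratio. This is a rule of size without a test. The libraries held 3.50 to 5.57 Gb of aligned bases, the sevoflurane control the least. A TPM of 2 stood for a read coverage of 4.72 in that library and of 6.84 to 7.28 in the others. The hepatocyte markers fitted the label, with a summed TPM of 94891 to 106449, of which albumin made up 53282 to 58868. In bulk tissue, fewer cells of a type and less RNA per cell cannot be told apart.

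With each agent compared to its own control on the named rows, the genes called with sevoflurane were lower and those called with desflurane were higher. In the sevoflurane comparison, 0 of the 9 genes tested were called higher and 4 lower (*Phgdh*, *Cth*, *Fgf21* and *Gdf15*), where 5.04% of the 8270 genes tested were called higher and 3.71% lower. In the desflurane comparison, 3 of 10 were called higher (*Atf3*, *Trib3* and *Gdf15*) and 0 lower, where 4.1% of the 8372 genes tested were called higher and 5.55% lower. For the 10 genes the median change was -0.67 with sevoflurane and 0.38 with desflurane. Over the 9201 genes whose TPM averaged 1 or more it was 0.05 and -0.10. Under these settings no gene of the 10 was called in the same direction with both agents, and 4 (*Atf4*, *Ddit3*, *Asns* and *Sesn2*) were called with neither. How many of all genes were called with both agents or with neither was not counted, so these counts describe the 10 genes only. Other settings gave calls of the opposite direction. *Trib3* was called higher with sevoflurane as well as with desflurane when each 6 h liver was set against the other agent's control (1.43 and 1.73) or when the assembled loci described below replaced the named row (1.24 and 2.31). It was also called higher with sevoflurane at a ratio of 1.5. With desflurane, *Cth* (-1.53) and *Fgf21* (-2.00) were called lower from the sevoflurane control, and *Cth* was called lower at a ratio of 1.5. The controls differed as well. Between them, 1 of 9 genes was called higher in the desflurane control (*Phgdh*) and 2 lower (*Fgf21* and *Gdf15*), against 1.96% higher and 0.799% lower of 8263 genes. The split of calls over all genes moved with the scaling. With libraries scaled by the median of ratios, calls that were higher made up 54.1% of the desflurane calls in place of 42.5%, and 53.5% of the control calls in place of 71.1%, while the genes called among the 10 were the same in both comparisons.

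**Figure D1:**
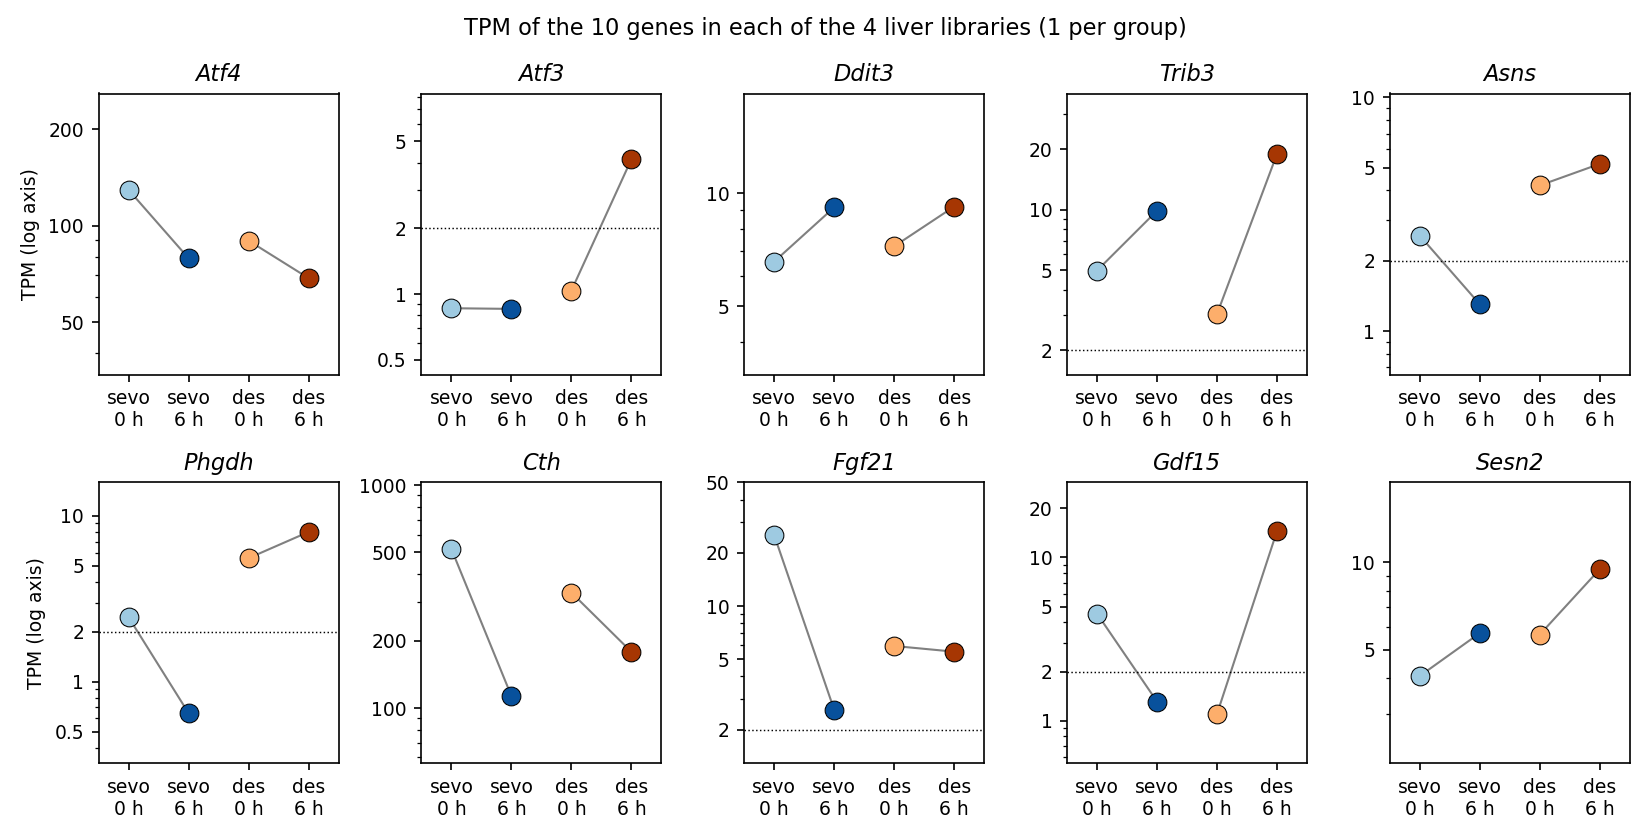
TPM (log axis) of each of the 10 genes in the 4 liver libraries, 1 point per library, with grey lines joining the 2 libraries of an agent and a dotted line at a TPM of 2. *Gdf15* and *Trib3* were highest under desflurane at 6 h, at 14.5 and 18.9, and *Fgf21* and *Cth* were highest in the sevoflurane control, at 25.1 and 516.

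*Atf4*, the central transcription factor of the response (rn6 chr7:121480723-121482781), was the second most abundant of the 10 mRNAs, at a TPM of 129 in the sevoflurane control, 79.0 after 6 h of sevoflurane, 89.7 in the desflurane control and 68.5 after 6 h of desflurane. Both controls were above both anesthetized livers. The log2 change was -0.70 with sevoflurane and -0.38 with desflurane, beside a difference of -0.52 between the desflurane and sevoflurane controls, and no comparison reached the ratio of 2.

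*Atf3*, an immediate stress-response factor of the same family (chr13:109817893-109849632), was listed at 0.86 in both sevoflurane libraries, 1.04 in the desflurane control and 4.14 after 6 h of desflurane. Only the last library stood above a TPM of 2, with a coverage of 15.1. *Atf3* rose 3.99-fold with desflurane, a log2 change of 1.33, beside -0.0048 with sevoflurane and 0.13 between controls. On the assembled locus the change with sevoflurane was 0.39 and that with desflurane 1.41.

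*Ddit3* encodes CHOP, a factor of cell death and differentiation under stress (chr7:70580252-70585074), and its 3′ end overlaps the end of *Mars1* on the opposite strand. The TPM was 6.57, 9.16, 7.21 and 9.20 in the order used for every run of 4 values from here on, sevoflurane control, sevoflurane 6 h, desflurane control, desflurane 6 h. Both 6 h livers were above both controls and stood within 0.01 of each other on the log2 scale. The log2 changes of 0.43 and 0.31 were larger than the control difference of 0.12, and neither was called.

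*Trib3*, a pseudokinase that is a target of ATF4 and CHOP and restrains both and the kinase AKT (chr3:147814066-147819650), had a TPM of 4.97, 9.86, 3.02 and 18.9. It was higher at 6 h than in either control with both agents. Under desflurane *Trib3* rose 6.25-fold, a log2 change of 2.31, and with sevoflurane the ratio was 1.98, just under the rule, with a log2 change of 0.86. The control difference was -0.57. The assembled locus gave 13.2 in place of 9.86 after sevoflurane, and the change of 1.24 was then called.

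On the named rows the 3 amino acid enzymes were all lower after sevoflurane than in its control. With desflurane they split, *Cth* being lower and *Asns* and *Phgdh* higher than in the control. *Asns*, asparagine synthetase (chr4:33743364-33760716), had a TPM of 2.56, 1.30, 4.20 and 5.20. Both desflurane livers were above both sevoflurane livers. The ratio with sevoflurane was 1.97-fold lower, just under the rule, with a log2 change of -0.63, beside 0.25 with desflurane and 0.55 between controls.

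*Phgdh*, the enzyme that opens serine synthesis from glycolysis (chr2:200484246-200513564), had a TPM of 2.44, 0.645, 5.56 and 8.00, in the same order of libraries as *Asns*. It fell 3.79-fold with sevoflurane, a log2 change of -1.07, and had a log2 change of 0.46 with desflurane. The desflurane control was 2.28-fold above the sevoflurane control, a difference of 0.93, so the controls differed in the direction opposite to the fall with sevoflurane. With a pseudocount of 0.1 in place of 1 these became -1.77 and 1.15. The coverage in the 6 h sevoflurane library was 2.21.

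For both of these genes the authors' assembly gave values that differed from the named row. The assembled loci on their strand lay in several pieces in the sevoflurane libraries. *Phgdh* had 4 pieces in the sevoflurane control and 2 after 6 h, and *Asns* had 2 and 4. Each desflurane library had 1 for either gene. TPM is scaled by length, so a sum over pieces of a transcript can grow with their number. Such sums are not comparable between libraries with unlike numbers of pieces. Summed over those loci, *Phgdh* was at 10.2, 3.39, 5.69 and 8.17, and *Asns* at 5.91, 6.87, 4.58 and 5.41. On these values the control difference of *Phgdh* was -0.75. *Asns* then had a sevoflurane change of 0.19 and a desflurane change of 0.20, and its difference between the 6 h livers (desflurane minus sevoflurane) was -0.30. The fall of *Phgdh* with sevoflurane was called on the named row and on the sums, which held 4 and 2 pieces. Its 6 h difference was 1.06 on the sums in place of 2.45.

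*Cth*, cystathionine gamma-lyase, which makes cysteine in the transsulfuration pathway (chr2:264267029-264293016), was the most abundant of the 10 mRNAs, with a TPM of 516, 113, 329 and 179. Both controls were above both 6 h livers. *Cth* fell 4.56-fold with sevoflurane, a log2 change of -2.18. With desflurane it was 1.84-fold lower, a log2 change of -0.88, and was not called, beside -0.65 between controls.

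*Fgf21*, the fasting and stress hormone of the liver (chr1:101595579-101596822), had a TPM of 25.1 in the sevoflurane control, 2.59 after 6 h of sevoflurane, 5.94 in the desflurane control and 5.52 after 6 h of desflurane. One library, the sevoflurane control, stood far above the other 3. *Fgf21* fell 9.71-fold with sevoflurane, a log2 change of -2.86, while the change with desflurane was -0.09. The desflurane control was itself 4.23-fold below the sevoflurane control, at -1.91, which was the largest deficit of any of the 9201 genes in that comparison. Measured from the other agent's control, the change was -0.95 after sevoflurane and -2.00 after desflurane. All 4 of these changes were below 0, and their size depended on which control was used.

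*Gdf15*, the other stress hormone (chr16:20555395-20557978), had a TPM of 4.53, 1.31, 1.10 and 14.5. It was high in the 6 h desflurane liver, with a coverage of 52.8, against 3.79 in its control and 4.48 after sevoflurane. It was intermediate in the sevoflurane control and low in the remaining libraries. *Gdf15* rose 13.2-fold with desflurane, a log2 change of 2.89, and fell 3.46-fold with sevoflurane, a log2 change of -1.26. The controls differed by 4.13-fold, at -1.40, the desflurane control being lower, and this was more than the change with sevoflurane. Measured from the sevoflurane control, the rise with desflurane was 1.49 and was still called, whereas from the desflurane control the change after sevoflurane was 0.14.

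*Sesn2*, a stress-inducible inhibitor of the growth kinase mTORC1 (chr5:150684896-150703846), had a TPM of 4.06, 5.70, 5.64 and 9.48. The 6 h liver was above its own control with both agents, by 1.41-fold and 1.68-fold, and the desflurane control was above the sevoflurane control by 1.39-fold. None of these ratios reached the rule, and the log2 changes were 0.41 with sevoflurane and 0.66 with desflurane, beside a control difference of 0.39. On the assembled locus the sevoflurane control was at 7.36, and the change with sevoflurane turned to -0.32 and the control difference to -0.33.

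**Figure D2:**
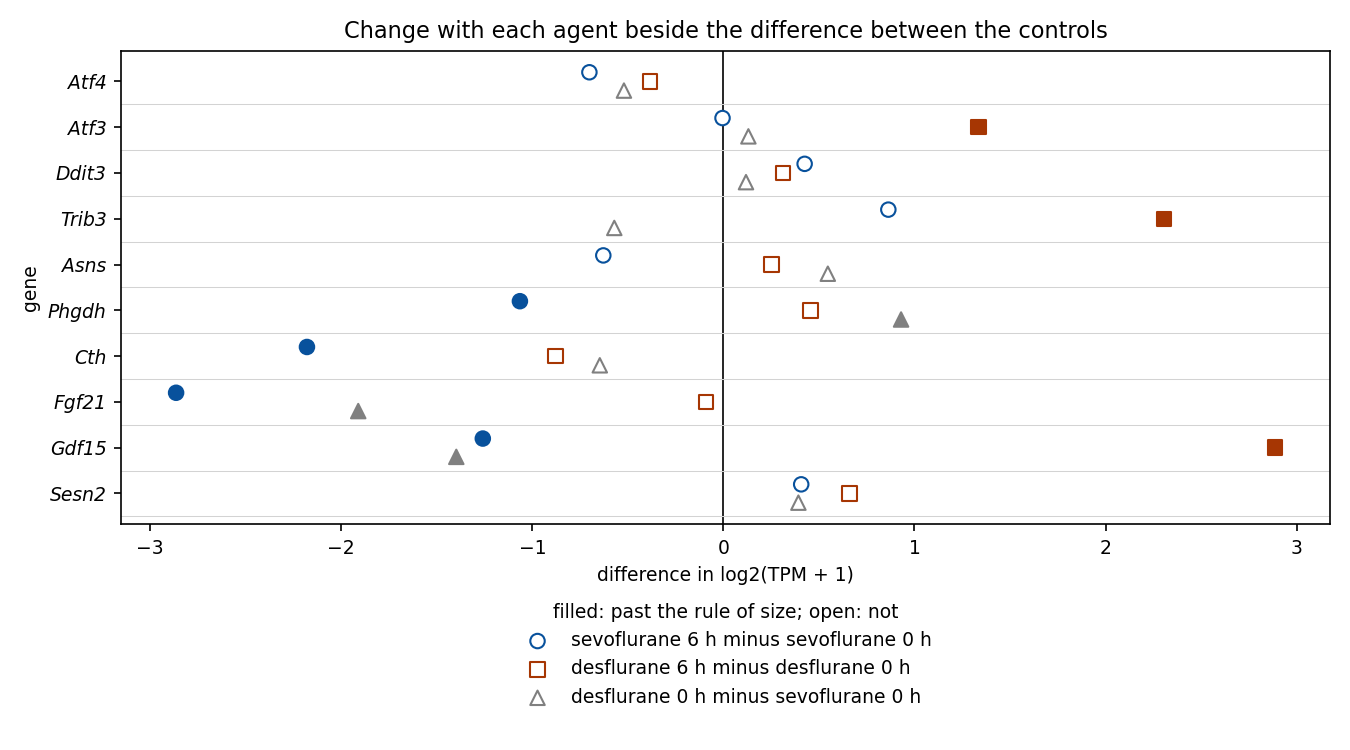
Change in log2(TPM + 1) of each gene with sevoflurane and with desflurane (6 h minus 0 h), beside the difference between the controls (desflurane 0 h minus sevoflurane 0 h), 1 library on each side of every difference. *Gdf15* went to -1.26 with sevoflurane and 2.89 with desflurane around a control difference of -1.40, and *Fgf21* had -2.86 and -0.09 around -1.91.

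On the named rows, the change was larger in size than the control difference for 8 of the 10 genes with sevoflurane and for 6 with desflurane, and for 4 with both (*Ddit3*, *Trib3*, *Cth* and *Sesn2*). How many of all genes did so was not counted, so these counts describe the 10 genes only. The changes and the control difference share the control libraries and are not independent of one another.

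Set against each other at 6 h, the desflurane liver was the higher one for 9 of the 10 genes, *Atf4* being the exception at -0.20. In this comparison 5 of 10 genes were called higher (*Atf3*, *Asns*, *Phgdh*, *Fgf21* and *Gdf15*) and 0 lower, where 2.21% of 8229 genes were called higher and 1.77% lower. Their median difference was 0.87, against -0.03 over 9201 genes. *Gdf15* differed by 11.1-fold, and its difference of 2.75 in log2(TPM + 1) was the highest of all 9201 genes. *Phgdh*, at lower levels, differed by 12.4-fold, or 2.45 (1.06 on the summed assembled loci). *Atf3* differed by 4.84-fold, *Asns* by 3.98-fold (-0.30 in log2 terms on the summed assembled loci) and *Fgf21* by 2.13-fold. For *Phgdh* and *Asns* the assembled values are sums over unlike numbers of pieces and are not comparable between these libraries. *Ddit3* was level, at 0.01. Of the 5 genes called, *Phgdh* was also called higher in the desflurane control than in the sevoflurane control (-0.75 on the summed loci, with the same limit). *Fgf21* and *Gdf15* were called lower there (-1.91 and -1.40). *Asns* was not called between the controls, and *Atf3* could not be tested there.

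The change with desflurane minus the change with sevoflurane had a median of 1.32 for the 10 genes and of -0.14 over all 9201, and it was above 0 for 9 of the 10. It was 4.15 for *Gdf15*, the highest of all 9201 genes, 2.77 for *Fgf21*, 1.52 for *Phgdh*, 1.44 for *Trib3*, 1.34 for *Atf3* and 1.30 for *Cth*. For *Fgf21* it came from the 2 sevoflurane libraries, since the desflurane libraries were level. With 1 library a group this difference could not be tested.

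**Figure D3:**
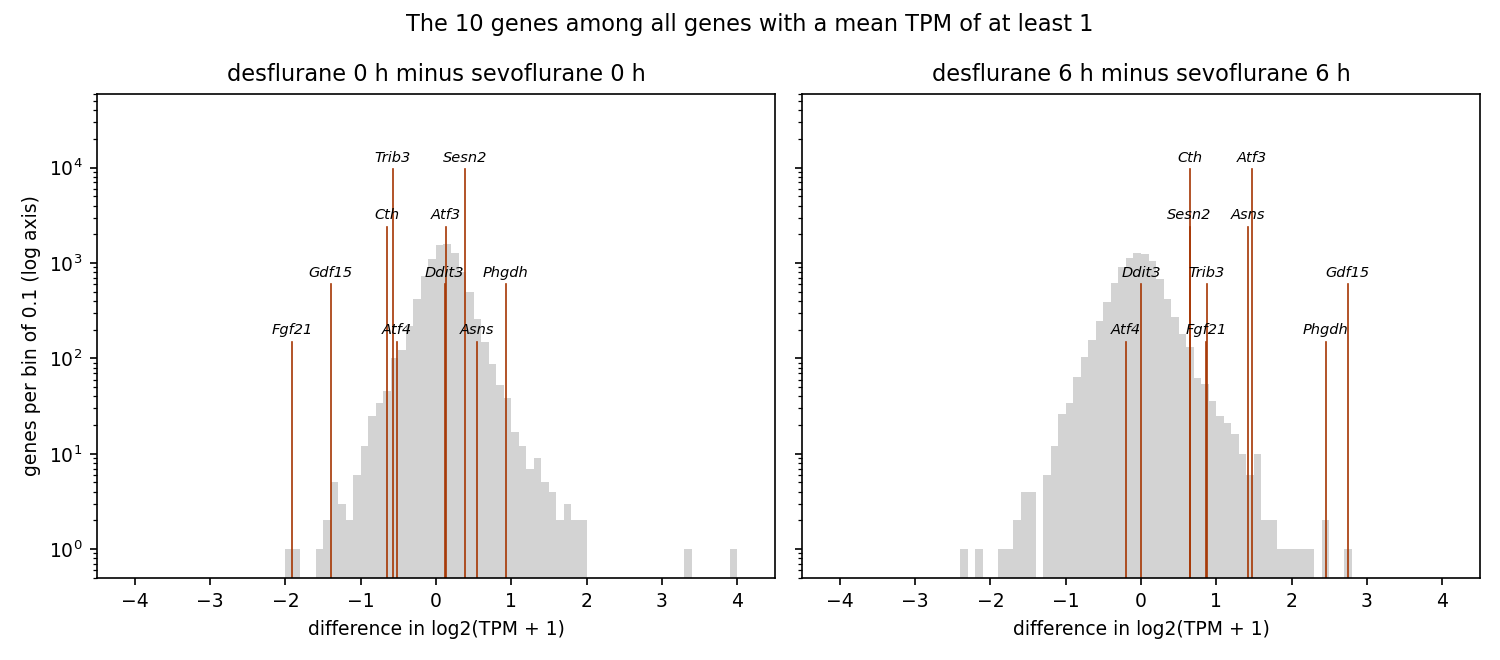
Histograms (genes per bin, log axis) of the desflurane minus sevoflurane difference in log2(TPM + 1) over 9201 genes (TPM of 1 or more on average), at 0 h on the left and at 6 h on the right, with lines at the 10 genes whose height carries no value. At 0 h *Fgf21* lay at the lower end (-1.91), and at 6 h *Phgdh* (2.45) and *Gdf15* (2.75) lay at the upper end.

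The comparison of both 6 h livers with both controls has 2 libraries a side (n = 2 per time). It was fitted with limma on log2(TPM + 1) with the agent as a block, over 8024 genes whose TPM averaged 2 or more, which leaves out *Atf3*. It has 1 residual degree of freedom per gene, while the total used by limma was 11.9. Most of that total was borrowed from a variance pooled over the other genes. The p-values therefore rest largely on that pooled variance, within these 4 libraries, and not on a spread measured for each gene. Of the 9 genes tested, 1 rose and 2 fell, where 8.62% of all genes were called (376 higher and 316 lower). *Trib3* rose by 1.58 ± 0.30 (SE, limma, adjusted p = 0.00508). *Cth* fell by 1.53 ± 0.22 (SE, limma, adjusted p = 0.000822), and *Atf4* fell by 0.54 ± 0.14 (SE, limma, adjusted p = 0.0342). *Fgf21* had a change of -1.48 ± 0.46 (SE, limma, adjusted p = 0.0730) and was not called. *Gdf15*, which went opposite ways with the 2 agents, had a change of 0.81 ± 0.65 (SE, limma, adjusted p = 0.563). *Sesn2* and *Ddit3*, whose named rows were higher at 6 h with both agents, did not pass limma, with adjusted p = 0.207 and 0.388. The call of *Atf4* was lost in 5 of the 6 other settings of the limma fit. Over all 6 its adjusted p ran from 0.0436, with the call kept, to 0.225. The calls of *Trib3* and *Cth* were lost in 1 of 6, with adjusted p of up to 0.250 and 0.204.

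Other genes of the pathway, taken from lists of known roles, did not follow the 10 genes as a body. In 5 lists of ATF4 targets and partners (partner transcription factors, amino acid synthesis, amino acid transport, stress effectors and aminoacyl-tRNA synthetases), the sevoflurane comparison had 2 of 43 tested genes higher and 1 lower, and the desflurane comparison 3 of 45 higher and 4 lower. Over all genes tested, 5.04% were called higher and 3.71% lower with sevoflurane, and 4.1% and 5.55% with desflurane. The same shares stand beside the list counts below, and no count was tested against them. Of these 56 genes, 46 averaged a TPM of 1 or more, with medians of 0.03 and -0.05. The change with desflurane minus that with sevoflurane was above 0 for 18 of the 46, with a median of -0.06. The lists differed in this. The median was 0.55 for partner factors, 0.45 for transport, 0.04 for stress effectors, -0.07 for synthesis and -0.15 for the synthetases, which are 20 of the 46 genes and had 4 of 20 above 0.

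Among the 8 kinases and eIF2 regulators, *Ppp1r15a*, which encodes the GADD34 subunit that brings phosphatase back to eIF2, was called higher with both agents, at a TPM of 3.34, 8.65, 2.33 and 17.6, and it rose in limma (adjusted p = 0.00173). No other gene of that list was called with either agent. *Ppp1r15b*, its constitutive counterpart, was at 31.4, 46.8, 31.2 and 22.5 and was called lower in the desflurane 6 h liver than in the sevoflurane 6 h liver. Of 7 partner transcription factors, *Jun* was called higher with both agents, at 7.80, 20.2, 7.27 and 40.0, and *Cebpb* with desflurane, at 42.3, 79.3, 28.4 and 168. *Atf5*, a close relative of *Atf4*, was called lower with desflurane, at 72.0, 42.9, 92.2 and 45.5. It was also lower after sevoflurane, though not called (-0.73), and it fell in limma (adjusted p = 0.0026). *Nupr1*, a stress-induced chromatin protein of this list, was at 33.3, 31.3, 44.8 and 73.6, and it was called higher in the desflurane 6 h liver than in the sevoflurane 6 h liver.

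In amino acid transport 1 gene was high with both agents. *Slc38a2*, the SNAT2 importer of neutral amino acids, stood at 14.7, 61.8, 18.0 and 116, was called higher with both agents and rose in limma (adjusted p = 5.23e-06). *Slc7a5*, the large neutral amino acid exchanger, was called lower with desflurane at 1.17, 0.69, 2.53 and 1.16. It was also called higher in the desflurane control than in the sevoflurane control (0.70). Of the 8 transport genes, 4 could be tested with sevoflurane and 5 with desflurane, and *Slc7a11*, *Slc7a1* and *Slc7a3* were below a TPM of 1 in every library.

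Serine, glycine, one-carbon and proline synthesis (10 genes) had 1 gene called lower with each agent and none higher. *Mthfd2*, of mitochondrial folate metabolism, was called lower with sevoflurane at 2.21, 0.79, 3.13 and 2.28. *Psph*, the last enzyme of serine synthesis, was called lower with desflurane at 8.54, 4.83, 10.2 and 4.68. *Psph* was also lower after sevoflurane, though not called (-0.71), and it fell in limma (adjusted p = 0.0339). *Psat1*, which acts between *Phgdh* and *Psph*, was at 3.75, 2.06, 4.65 and 7.59. The 6 h desflurane liver was its highest and the 6 h sevoflurane liver its lowest, as for the named rows of *Phgdh* and *Asns*. The sums over their assembled pieces had other orders. Among 11 stress effectors, *Inhbe*, a liver activin subunit, was called lower with desflurane at 61.1, 30.7, 71.2 and 10.2, and it fell in limma (adjusted p = 0.0017).

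None of the 20 cytosolic aminoacyl-tRNA synthetases, several of which are ATF4 targets, was called with either agent. In limma, *Tars1* fell (-0.65 with sevoflurane and -0.81 with desflurane, adjusted p = 0.00604). *Eprs* rose (0.49 and 0.54, limma, adjusted p = 0.0326), and no other synthetase passed limma. Of 13 chaperones and XBP1 or ATF6 targets of the endoplasmic reticulum, sevoflurane had 3 called higher, and desflurane 2 higher plus 1 lower. *Edem1*, of the degradation of misfolded glycoproteins, was called higher with both agents at 66.2, 444, 67.2 and 552. *Herpud1*, of the same system, was too, at 64.1, 255, 122 and 307. *Xbp1*, the splicing-controlled factor itself, was called higher with sevoflurane alone, at 108, 255, 96.0 and 127, and *Creld2* lower with desflurane at 28.7, 21.4, 39.4 and 15.4. The medians of this list were -0.06 and -0.10, so the large values of *Edem1* and *Herpud1* were not shared by the list.

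The 12 PPAR-alpha genes, the other input to *Fgf21*, went both ways. With sevoflurane *Cpt1a*, *Ppara* and *Cyp4a1* were called higher and *Angptl4*, *Plin2* and *Pdk4* lower, and with desflurane *Ppara*, *Cpt1a* and *Acot1* were called higher and none lower. *Cpt1a*, the gate of fatty acid entry into mitochondria, stood at 27.9, 250, 77.6 and 251, and was also called higher between the controls (1.44). *Ppara* stood at 9.70, 32.1, 12.7 and 43.6. Of 8 p53 targets, *Mdm2* was called higher with sevoflurane at 7.83, 17.1, 10.4 and 13.5, and *Btg2* and *Cdkn1a* with desflurane at 5.23, 4.30, 3.89 and 14.4 and at 3.10, 1.64, 4.30 and 13.5. *Cdkn1a* (the p21 cell cycle inhibitor), *Btg2* and *Ccng1* were highest in the library in which *Gdf15*, also a p53 target, was highest. *Mdm2* was highest in the sevoflurane 6 h liver and *Bbc3* in the sevoflurane control. *Bax* and *Phlda3* were highest in the desflurane control and lowest in the desflurane 6 h liver, and *Zmat3* was below a TPM of 1 in every library. A part of p53 in the level of *Gdf15* was not tested. Of the 6 receptor genes for the 2 hormones in the tables, 3 could be tested with sevoflurane and 4 with desflurane, and 0 of these were called. *Gfral* was listed at 0 in all 4 libraries and *Ret* was below a TPM of 1.

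**Figure D4:**
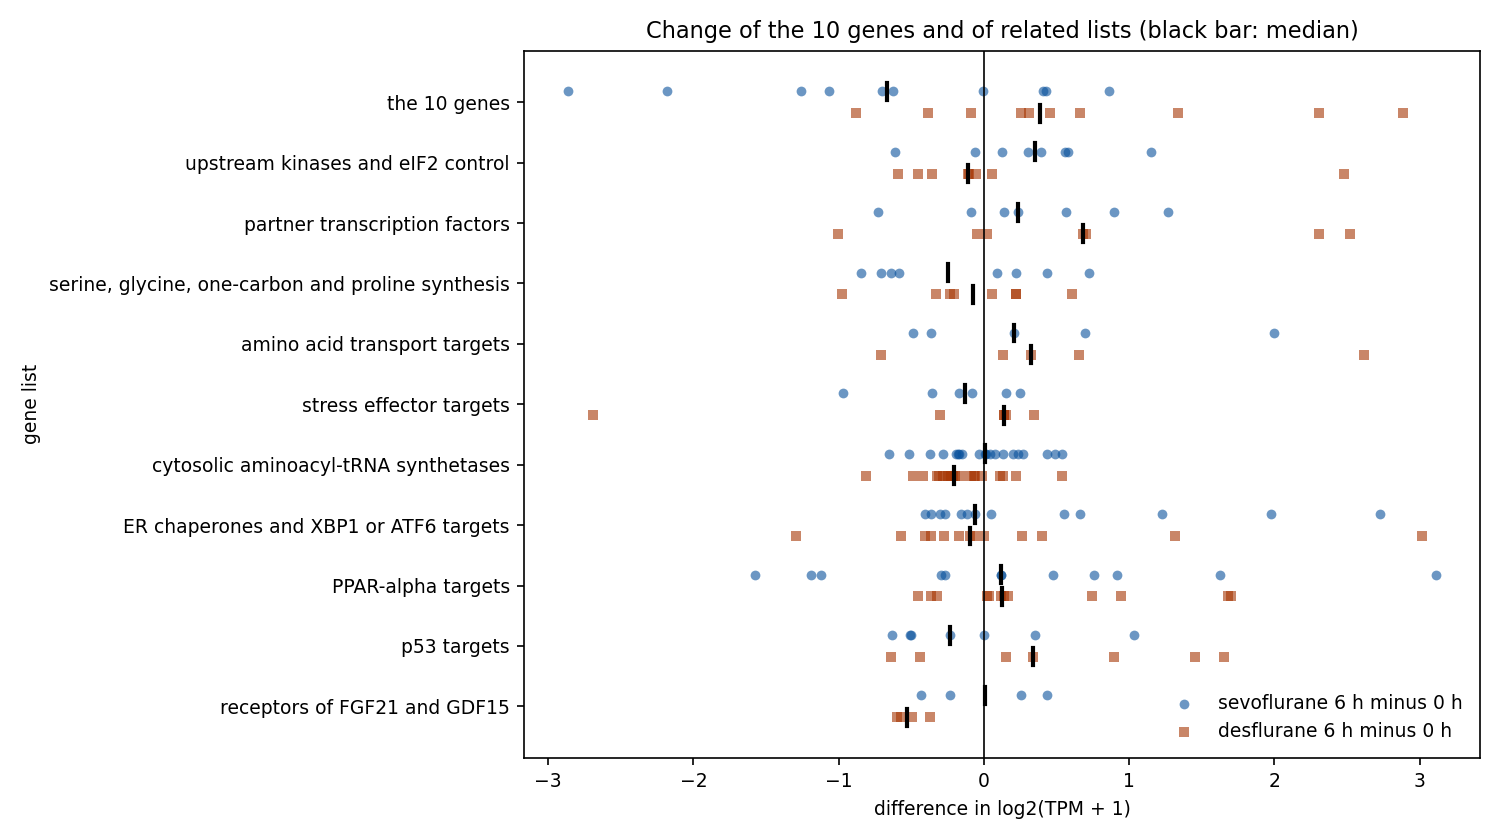
Change in log2(TPM + 1) with sevoflurane (circles) and with desflurane (squares) of the 10 genes and of the genes in each pathway list, 1 point per gene (TPM of 1 or more on average) and a bar at the list's median. The medians were 0.24 and 0.68 for partner factors, 0.20 and 0.33 for transport and 0.01 and -0.21 for the synthetases (sevoflurane and desflurane), and the point farthest right of the transport list is *Slc38a2* with either agent.

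The genes whose levels over the 4 libraries were most like those of *Fgf21* and *Gdf15* were found as the smallest Euclidean distance between centred log2(TPM + 1) profiles among 8023 other genes. For *Fgf21* these were *Adh1* (alcohol dehydrogenase, distance 0.84), at 451, 103, 254 and 136, *Cth* (0.91) and *Angptl4* (a lipoprotein lipase inhibitor, 0.96), at 74.5, 24.3, 38.7 and 28.1. All 3 were highest in the sevoflurane control and lowest in the sevoflurane 6 h liver, as *Fgf21* was. For *Gdf15* they were *Insig1* (a brake on sterol synthesis, 0.56), at 143, 69.5, 53.6 and 279, *Gstm3l* (0.94), at 12.0, 6.59, 9.32 and 32.4, and *G6pc* (glucose-6-phosphatase, 1.09), at 361, 258, 199 and 651. With 4 points a likeness is a description only.

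Markers of other cells moved between the libraries in part. The 7 Kupffer cell markers summed to a TPM of 370, 307, 334 and 401, lowest in the sevoflurane 6 h liver and highest in the desflurane 6 h liver, with 7 of 7 higher in the second than in the first and 0 called in any comparison. The 7 lymphocyte markers summed to 7.56, 3.40, 4.14 and 3.17 and were highest in the sevoflurane control, where *Fgf21* was highest. Of these, *Nkg7* and *Prf1* were called lower with sevoflurane and between controls, and the other 5 were below a TPM of 1 in every library. The 6 listed red blood cell markers summed to 474, 1261, 759 and 1402, with 4 of 4 tested called higher with sevoflurane and 0 with desflurane. With desflurane these 4 changed by 0.72 to 0.99, under the rule, and all 4 rose in limma (adjusted p = 8.36e-05 to 0.0236). The sums ran from 50.5 to 60.4 for endothelial, 113 to 179 for stellate and fibroblast, and 6.61 to 8.14 for cholangiocyte markers. Pancreatic acinar markers summed to 0.93 to 1.88, with *Prss1* and *Pnlip* at 0. The part of these cells in the values of the 10 genes was not tested.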

How the data were processed

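RNA was prepared from rat liver with the RNeasy Midi Kit and libraries with the TruSeq Stranded Total RNA Gold kit, per the labels. The submitters' processing notes name HISAT2, SAMtools and StringTie and the rn6 build. No source used here gives versions, annotation or strand setting. The authors deposited 1 StringTie gene table per library, with TPM, FPKM and coverage. The deposited TPM column was handled as a score, because rows of assembled loci alone sum to 1000000 and named genes come on top of that. The deposited FPKM values and the deposited coverage signal were used for scale and depth only, and aligned bases were estimated from coverage.

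Rows of a symbol spanning over 200 bp were summed, and all 10 genes had 1 row in every table. Changes were taken as log2(TPM + 1), with a pseudocount of 1. With 1 library per group no p-value was computed between groups. Both times were compared with limma 3.58.1 (R 4.3.3; trend, agent block, two-sided, Benjamini-Hochberg over 8024 genes), tested on simulated data first. An exact permutation of 2 against 2 libraries cannot go below p = 0.333. Named genes were all 10 genes, up to 3 genes per pathway list, agent and direction, and the 3 nearest profiles for each hormone. *Psat1*, *Nupr1*, *Ppp1r15b*, *Tars1* and *Eprs* were named after their values were seen. The genes and lists were chosen with earlier results of these data known. Alternatives covered the ratio, minimum TPM, pseudocount, scaling, control, filters and assembled loci.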

Additional observations from a re-analysis of the deposited data

Results flagged for a closer look

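In 4 of the 10 genes the 2 agents gave changes of opposite sign, with 1 library on each side, and the difference was not tested. How many of all genes had opposite signs was not counted. *Atf3* was at 0.86 in both sevoflurane libraries, below the minimum TPM of 2, so its sign with sevoflurane carries little. The desflurane change minus the sevoflurane change, in log2(TPM + 1), was 4.15 for *Gdf15* (2.89 and -1.26), 1.52 for *Phgdh* (0.46 and -1.07), 1.34 for *Atf3* (1.33 and -0.0048) and 0.88 for *Asns* (0.25 and -0.63). The control difference was -1.40 for *Gdf15*, 0.93 for *Phgdh*, 0.13 for *Atf3* and 0.55 for *Asns*. On the assembled loci the sevoflurane and desflurane changes of *Atf3* had the same sign (0.39 and 1.41), so its opposite signs rest on the named row. For *Asns* the summed loci gave 0.19 and 0.20. Those sums held 2 pieces in the sevoflurane control, 4 after sevoflurane and 1 in each desflurane library. They are not comparable between libraries and do not decide the sign of *Asns*.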

How the results depend on the processing

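Each group held 1 library, so leaving out a library was not possible, and leaving out an agent from the limma fit leaves no residual degree of freedom. The labels give no replicate numbers. The limma fit set each 6 h library beside its own agent's control as a block. Without that block it called 2 of the 9 genes tested and 488 genes in all, in place of 3 and 692. With the ratio set at 1.5, the number of the 10 genes called went from 4 to 7 with sevoflurane, from 3 to 5 with desflurane, from 3 to 6 between controls and from 5 to 8 between the 6 h livers. With a minimum TPM of 5 the sevoflurane count was 2. With the control of the other agent the desflurane count was 8 and the change of *Gdf15* after sevoflurane turned to 0.14. With assembled loci in place of the named row, the control difference of *Phgdh* turned to -0.75 and the 6 h difference of *Asns* to -0.30. In both, a sum over 4 pieces was set against 1 piece, so these values are not comparable. The sevoflurane change of *Sesn2*, which was not called, turned to -0.32. The limma count of 3 became 0 where no filter on mean TPM was applied (13629 genes tested, 25 called), with 3 of the 10 genes at an unadjusted p below 0.05. Scaling by the median of ratios moved the median of all genes by over 0.1 only between controls, from 0.11 to 3.7e-05, and the median of the 10 genes there from -0.20 to -0.32. It added *Asns* to the sevoflurane calls. The other counts stayed within 1.5 times. Depth limits *Atf3*, *Phgdh*, *Gdf15* and *Asns*, whose lowest coverages were 2.03, 2.21, 3.79 and 4.46. The causes of these shifts were not tested.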
